A study of Mus musculus with 6 samples.

Results

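The enzymes described here carry long-chain fatty acids into mitochondria and shorten them there, and they form a list of 10 gene names, taken up with earlier results of these data known but by a rule that uses no measured value: Cpt1a, Cpt1b, Cpt2, Acadvl, Acadl, Acadm, Acads, Hadha, Hadhb and Acaa2. Of these 10 genes, 9 had a probe set whose annotation names that single gene, among 22180 genes read in this way. Cpt1b, the muscle form of the entry enzyme, shares its probe set with 2 other gene names and was therefore not measured. Each of the 9 genes is read by 1 probe set.

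RNA from 6 mouse samples, given in the labels as strain DBA/2J and female, was hybridised to Affymetrix Mouse Gene 2.0 ST arrays, with 1 array and 1 sample for each group. Undifferentiated induced pluripotent stem (iPS) cells gave 1 library. Another 3 libraries came from iPS cells grown in suspension for 5 days as embryoid bodies, then plated on gelatin and collected at day 7 of differentiation after treatment with 1% DMSO, with 100 ng/ml NRG-1 (neuregulin 1, a ligand of ERBB receptors), or with both. The remaining libraries were labelled as cardiomyocytes from neonatal and from adult mouse heart. No differentiated culture without DMSO and NRG-1 was analysed here, so a difference between a culture and iPS cells covers differentiation and treatment together. All values are log2 expression values made with RMA, and a difference of 1.00 is 2-fold. With 1 library per group there is no replicate check, and no difference was tested.

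Fatty acids bound to coenzyme A cannot cross the inner mitochondrial membrane, so CPT1 in the outer membrane passes them to carnitine, a carrier exchanges the product inward, and CPT2 returns them to coenzyme A. In the matrix each turn of beta oxidation uses an acyl-CoA dehydrogenase chosen by chain length, the trifunctional protein built from Hadha and Hadhb products or separate short-chain enzymes, and a thiolase. CPT1 is inhibited by malonyl-CoA, the product of acetyl-CoA carboxylase. The heart gains most of its energy from this pathway after birth, under control of PPAR and ERR nuclear receptors and their coactivator PGC-1alpha.

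The labels of the heart libraries were checked against marker genes. Of 9 cardiomyocyte markers, 8 reached the filter on dim genes in the neonatal library, 6 in the adult library and 6 in iPS cells. The filter, 5.20, is the median over all probe sets and libraries. The mean log2 value of these markers was 6.73 in the neonatal and 5.60 in the adult library, beside 5.51 in iPS cells and 6.44 to 6.86 in the cultures. In the adult library Myh6, the main adult cardiac myosin heavy chain, was at 5.05, below the filter. Myh6, Tnni3, Actc1 and Ryr2 were lower there than in iPS cells. Tnnt2 (8.22 against 6.35), Myl2, Pln, Mb and Ckm were higher, with Pln under the filter in both. The 7 fibroblast markers had a mean of 10.63 in the neonatal and 11.14 in the adult library, 6.65 in iPS cells and 8.28 to 8.78 in the cultures. The 7 hepatocyte and yolk sac markers averaged 9.13 to 9.62 in the cultures and 5.59 to 5.94 in the other libraries, and the mean of the 5 macrophage markers was highest in the adult library, at 7.08, although Csf1r and Cd68 were higher in the cultures. The part of these cell types in the differences given here was not tested, and fewer cells of a type and less RNA per cell cannot be told apart. The 3 Y-linked genes read (Eif2s3y, Kdm5d and Uty) lay between 6.17 and 8.15 in the heart libraries and at 4.06 or lower in the other libraries, against the label female. Xist, expressed from the inactive X chromosome, was 8.78 in the neonatal library, the highest of the 6, and 3.39 in the adult library, so the neonatal library held both kinds of transcript.

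Cpt1a, the liver form of the carnitine palmitoyltransferase that commits fatty acids to oxidation, had the widest range of the measured enzymes. Its log2 value was 9.17 in iPS cells, 8.07 with DMSO, 7.23 with NRG-1, 7.91 with both, 9.26 in the neonatal and 9.11 in the adult library. The 3 cultures were low and the other 3 libraries were high, with a gap of 1.04 between the highest culture and the adult library. Against iPS cells Cpt1a was 2.16-fold lower with DMSO, 3.86-fold lower with NRG-1 and 2.40-fold lower with both. The upstream sequence of Cpt1a, the enzyme whose values set the cultures furthest apart from the other libraries, is given here from RefSeq (GRCm38.p6, chr19:3323051-3323300, plus strand, the 250 bases before the start site). Capitals mark AGGTCA, the hexamer that nuclear receptors such as PPAR and ERR recognise, and GGGCGG, a box of Sp and KLF factors, each on either strand and without overlap with each other.
Cpt1a: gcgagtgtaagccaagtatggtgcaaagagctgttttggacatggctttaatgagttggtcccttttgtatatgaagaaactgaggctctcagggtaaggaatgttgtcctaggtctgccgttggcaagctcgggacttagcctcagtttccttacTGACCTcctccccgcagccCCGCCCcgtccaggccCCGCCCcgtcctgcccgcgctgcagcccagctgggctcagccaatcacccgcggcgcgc
The window held AGGTCA once, read on the opposite strand from -94 to -89 relative to the start site, and GGGCGG at -75 and -59, also on the opposite strand. Among 32851 promoter windows of this length, 14% held AGGTCA and 32.7% held GGGCGG. Promoters of 8 of the 10 enzymes were in the table, and 3 of the 8 held AGGTCA (Acadm, Acadvl and Cpt1a) and 6 held GGGCGG. The only GGGCGG of Hadha lies in the stretch shared with the window of Hadhb and is counted for both genes. The GC content of the 8 windows ran from 49.6% (Acadvl) to 68% (Acadl). All but that of Acadvl were above the median of all windows, 52.4%, and GGGCGG is itself made of G and C. None of the 8 held 2 copies of AGGTCA in a row with 1 base between them, the direct repeat bound by PPAR with RXR (0.0335% of all windows), the ERR element TCAAGGTCA (0.387%), which contains the hexamer, or the E-box CACGTG (6.02%). CCAAT was found in 1 (Cpt1a) and in 33.8% of all windows. These matches are letters in a window and not known sites.

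Cpt2, which completes the transfer on the inner membrane, varied least among the enzymes that were above the filter. Its value was 7.98 in iPS cells, 8.29 with DMSO, 8.17 with NRG-1, 8.25 with both, 8.06 in the neonatal and 8.18 in the adult library. All 6 libraries lay within a range of 0.30, or 1.23-fold, so no library stood apart.

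**Figure D1:**
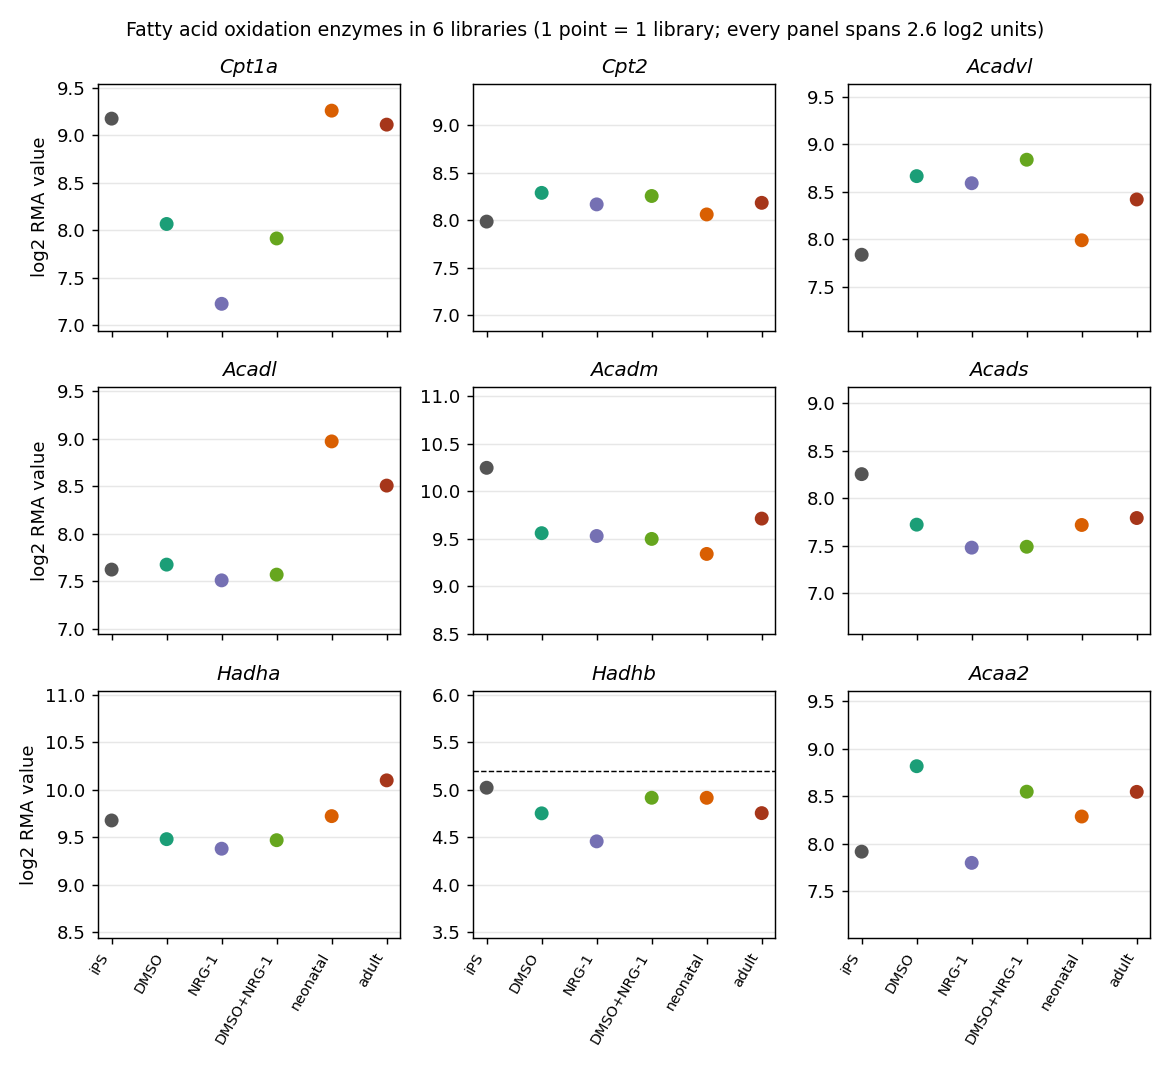
Log2 RMA value (vertical axis) of the 9 measured enzymes in each of the 6 libraries (horizontal axis), 1 point per library and no error bars because each group has 1 library; the dashed line is the filter on dim genes at 5.20. Cpt1a is lowest in the 3 cultures, Acadl is highest in the 2 heart libraries, and Hadhb lies under the filter in all 6 libraries.

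The 4 acyl-CoA dehydrogenases, which carry out the first oxidation step for chains of different length, did not share a pattern. Acadvl acts on very long chains at the inner membrane. Its value was 7.84 in iPS cells, 8.67 with DMSO, 8.59 with NRG-1, 8.84 with both, 7.99 in the neonatal and 8.42 in the adult library. The 3 cultures were above both heart libraries and the iPS cells, by 0.17 at the narrowest point. The largest difference from iPS cells was in the culture with both agents, 1.00 after rounding and just under 2-fold. Its upstream window (GRCm38.p6, chr11:70015429-70015678, minus strand) is shown because Acadvl was higher in the cultures where Cpt1a was lower, and it also holds an AGGTCA hexamer, in capitals, from -87 to -82.
Acadvl: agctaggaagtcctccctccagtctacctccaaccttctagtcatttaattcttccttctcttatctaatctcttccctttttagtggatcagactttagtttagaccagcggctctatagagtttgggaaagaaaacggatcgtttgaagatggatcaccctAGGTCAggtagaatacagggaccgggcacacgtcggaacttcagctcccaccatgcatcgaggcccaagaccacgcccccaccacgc

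Acadl acts on long and branched chains. Its value was 7.62 in iPS cells, 7.67 with DMSO, 7.51 with NRG-1, 7.57 with both, 8.97 in the neonatal and 8.51 in the adult library. The iPS cells and the 3 cultures lay within 0.17 of each other, and the heart libraries were at least 0.83 above all of them. Against iPS cells Acadl was 2.55-fold higher in the neonatal and 1.84-fold higher in the adult library. Its upstream window (GRCm38.p6, chr1:66863310-66863559, minus strand) is shown for contrast with the windows of Cpt1a and Acadvl, since it held no AGGTCA and GGGCGG (capitals, opposite strand) 4 times.
Acadl: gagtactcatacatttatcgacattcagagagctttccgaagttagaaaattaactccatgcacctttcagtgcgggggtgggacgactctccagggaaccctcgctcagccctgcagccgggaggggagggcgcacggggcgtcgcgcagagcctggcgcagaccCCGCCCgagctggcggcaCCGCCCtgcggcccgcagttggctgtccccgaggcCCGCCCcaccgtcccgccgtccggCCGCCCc

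Acadm, for medium chains, and Acads, for short chains, were both highest in iPS cells. Acadm was at 10.25 in iPS cells, 9.56 with DMSO, 9.53 with NRG-1, 9.50 with both, 9.34 in the neonatal and 9.71 in the adult library. Acads was at 8.25 in iPS cells, 7.72 with DMSO, 7.48 with NRG-1, 7.49 with both, 7.72 in the neonatal and 7.79 in the adult library. The 5 other libraries lay under the iPS cells by 0.53 or more for Acadm and by 0.46 or more for Acads, and the cultures and heart libraries overlapped. An alternative scaling set the median level of 7 housekeeping genes equal across libraries (the housekeeping shift), which adds 1 constant to all genes of a library: against iPS cells 0.58 with DMSO, 0.40 with NRG-1, 0.85 with both, 0.38 in the neonatal and 0.16 in the adult library. A form added after seeing the data centred each housekeeping gene first (the centred shift), with constants of 0.37, 0.44, 0.27, 0.41 and 0.32. The median difference of the 7 genes themselves from iPS cells, as deposited, was -0.21 with DMSO, -0.37 with NRG-1 and -0.08 with both. The housekeeping shift made these 0.37, 0.03 and 0.77, further from 0 with DMSO and with both. In the neonatal and adult libraries -0.42 and -0.36 became -0.03 and -0.20. Under the centred shift all lay between -0.03 and 0.19. Under the housekeeping shift, the Acadm difference from iPS cells with both agents turned from -0.75 to 0.10 and that of Acads from -0.76 to 0.08. With DMSO that of Acads turned from -0.53 to 0.05. None of these turned under the centred shift. Relative to the median of all genes, the differences with both agents were -0.73 for Acadm and -0.74 for Acads. The constant cancels in this reading, so it does not check the scaling.

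Hadha encodes the alpha subunit of the mitochondrial trifunctional protein, which holds the hydratase and long-chain dehydrogenase activities. Its value was 9.68 in iPS cells, 9.48 with DMSO, 9.38 with NRG-1, 9.47 with both, 9.72 in the neonatal and 10.10 in the adult library. The cultures were lowest and the adult library highest, over a range of 0.72. Hadhb, the beta subunit with thiolase activity, lay between 4.46 (NRG-1) and 5.02 (iPS cells), under the filter in all 6 libraries, so it entered no count of 2-fold differences. Both genes start from 1 stretch of DNA in opposite directions, with 272 bases between their start sites, and the shared part of their promoter windows is given for that reason (GRCm38.p6, chr5:30155003-30155230, plus strand, the direction of Hadhb). It held no AGGTCA, and GGGCGG is in capitals.
Hadha and Hadhb: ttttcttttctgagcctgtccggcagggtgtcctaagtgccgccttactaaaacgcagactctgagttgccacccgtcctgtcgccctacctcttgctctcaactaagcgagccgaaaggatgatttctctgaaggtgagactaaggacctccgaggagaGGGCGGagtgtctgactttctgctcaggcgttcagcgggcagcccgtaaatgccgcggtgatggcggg

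Acaa2, the mitochondrial thiolase of the last step, separated the cultures from each other. Its value was 7.92 in iPS cells, 8.81 with DMSO, 7.80 with NRG-1, 8.55 with both, 8.28 in the neonatal and 8.54 in the adult library. Both cultures that received DMSO were high, the culture with NRG-1 alone was lowest, and the heart libraries lay between these extremes. Over the 8 enzymes above the filter, the median range across the 6 libraries was 0.95, beside 0.99 for the 14579 genes that passed the filter in at least 1 library. Ranges of at least 2-fold were found for 3 of the 8 (Cpt1a, Acadl and Acaa2) and for 49.3% of those genes.

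Against iPS cells, Cpt1a was lower in the cultures and Acadl higher in the neonatal library, while the median over the enzymes stayed within 0.30 of 0. A gene was counted if the higher of its 2 values reached the filter. With DMSO, no enzyme of 8 was 2-fold or more above iPS cells and 1 (Cpt1a) was as far below, beside 13.1% and 13.3% of all genes tested, and the median difference of the 9 measured enzymes was -0.20 against -0.01 for all genes tested. With NRG-1, 0 were higher and 1 (Cpt1a) lower, beside 11.3% and 14.5%, and the medians were -0.30 and -0.02. With both agents, 0 were higher and 1 (Cpt1a) lower, beside 13% and 13.1%, and the medians were -0.11 and -0.02. A count of 1 in 8 is close to these background shares. These 3 comparisons share the iPS library and are not independent of each other.

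In the neonatal library 1 of 8 enzymes (Acadl) was at least 2-fold higher than in iPS cells and 0 lower, beside 13% and 11.2% of all genes tested. The median difference was 0.08 for the enzymes and -0.07 for all genes tested. In the adult library 0 of 8 were at least 2-fold higher and 0 lower, beside 13.1% and 14.1%, with medians of 0.20 and -0.06. The disagreement between probe sets of 1 gene mixes noise with transcript differences and holds no spread between cultures or hearts. Its SD was 0.553 to 0.601 in the comparisons with iPS cells, 0.345 between the heart libraries and 0.197 to 0.305 between the cultures. Of the 45 differences of the 9 enzymes from iPS cells, those of Cpt1a in the cultures and of Acadl in the neonatal library were the 4 past 2-fold. Under the housekeeping shift and under the centred shift, Cpt1a stayed past 2-fold with NRG-1 but not with DMSO or with both.

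**Figure D2:**
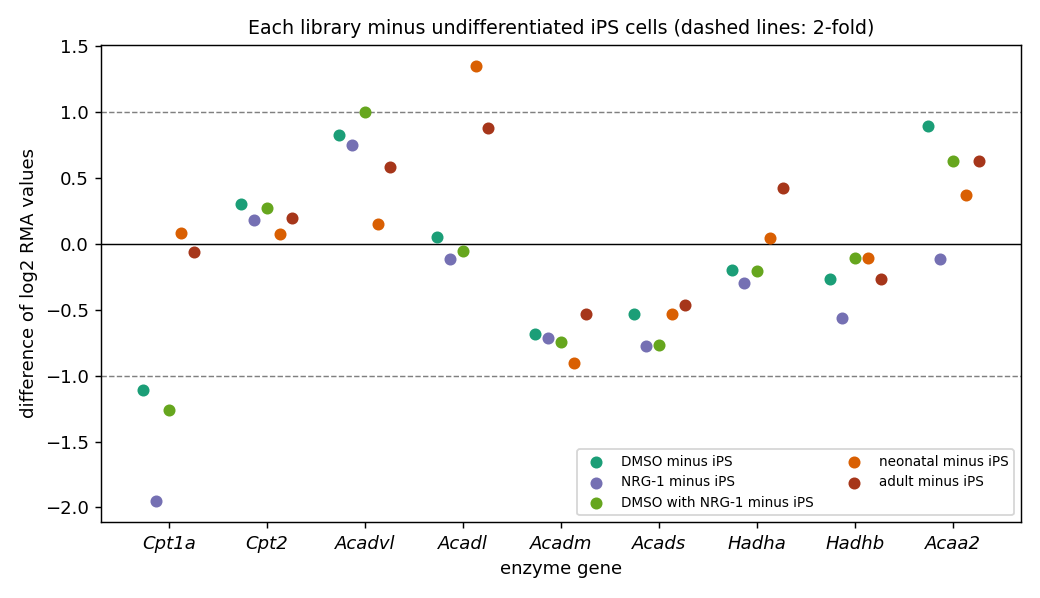
Difference of log2 RMA values from undifferentiated iPS cells (vertical axis) for each enzyme (horizontal axis), 1 point per library with colours as in the legend and dashed lines at 2-fold. Cpt1a lies at or below -1.11 in the 3 cultures and near 0 in the heart libraries, and Acadl lies at 1.35 in the neonatal and 0.88 in the adult library.

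At a limit of 1.5-fold more enzymes were counted. With DMSO 2 of 8 were higher (Acaa2 and Acadvl) and 2 lower (Cpt1a and Acadm), beside 22.7% and 24.1% of all genes tested. With NRG-1 1 was higher (Acadvl) and 3 lower (Cpt1a, Acads and Acadm), beside 21% and 25.3%, and with both agents 2 were higher (Acadvl and Acaa2) and 3 lower (Cpt1a, Acads and Acadm), beside 22.5% and 24.4%. In the neonatal library 1 was higher (Acadl) and 1 lower (Acadm), beside 21.2% and 22.5%, and in the adult library 2 were higher (Acadl and Acaa2) and 0 lower, beside 21.6% and 25.4%. Acadvl was thus past 1.5-fold above iPS cells in each culture and Acadm below in each culture.

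The adult library was set against the neonatal library, the later against the earlier age of the heart. None of the 8 enzymes reached 2-fold, beside 2.52% of all genes tested higher and 2.92% lower. The differences ran from -0.46 (Acadl) to 0.43 (Acadvl), with a median of 0.12 beside -0.03 for all genes tested. Hadha was higher in the adult library by 0.38, Acadm by 0.37 and Acaa2 by 0.26, and Cpt1a differed by -0.15. No enzyme reached 1.5-fold, beside 7.72% and 9.54% of all genes tested. In this comparison 6 of the 9 enzymes were above 0, beside 46.9% of all genes tested. Hadhb, under the filter, is among the 9 and was below 0. The signs of Acads (0.07) and Cpt2 (0.12) turned under the housekeeping shift, and Acads also turned under the centred shift.

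Between the cultures, NRG-1 alone was set against DMSO alone, and the values of Acaa2 and Cpt1a differed most. All 9 measured enzymes had lower values with NRG-1, by 0.03 (Acadm) to 1.02 (Acaa2), while 53.5% of all genes tested were below 0. The 9 include Hadhb, which was under the filter, whereas the share covers only genes that passed it. The median was -0.17 for the enzymes and -0.03 for all genes tested. Under the centred shift Acadm turned to 0.04, and the other 8 stayed below 0 under each scaling tried. Acaa2 was 2.02-fold lower and Cpt1a 1.79-fold lower. Acaa2 was the 1 of 8 enzymes at least 2-fold lower and 0 were higher, beside 1.78% and 0.36% of all genes tested; under the centred shift it was at -0.95, and the count was 0. At 1.5-fold, 2 were lower (Acaa2 and Cpt1a) and 0 higher, beside 7.01% and 3.2%. The other 7 enzymes differed by 0.29 or less.

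NRG-1 added to DMSO left the enzymes near their values with DMSO alone. No enzyme of the 8 was 2-fold apart, beside 0.0455% of all genes tested higher and 0.053% lower. At 1.5-fold the count was also 0, beside 0.727% higher and 0.765% lower. The differences ran from -0.27 (Acaa2) to 0.17 (Acadvl), with a median of -0.06 beside 0.00 for all genes tested. Acads was at -0.23. Under the housekeeping shift Acads, Acadl, Acadm, Cpt1a, Cpt2 and Hadha changed sign, and under the centred shift no enzyme did. Set against NRG-1 alone, the culture with both agents had higher values for 8 of the 9 enzymes, beside 55.1% of all genes tested. Acaa2 (0.75) and Cpt1a (0.69) led, and Hadhb, under the filter, is among the 8. Acads (0.01) turned under cyclic loess and Acadm (-0.03) under the housekeeping shift. Under the centred shift Acadl, Acads, Cpt2 and Hadha were below 0. No enzyme reached 2-fold there, beside 1.08% of all genes tested higher and 0.293% lower; at 1.5-fold 2 were higher (Acaa2 and Cpt1a) and 0 lower, beside 5.64% and 2.66%. In the deposited values, the culture with NRG-1 alone was the lowest of all 6 libraries for Cpt1a, Acadl, Acads, Hadha, Hadhb and Acaa2. The share of all genes lowest in that library was not read. Under the housekeeping shift iPS cells were lowest for Acadl, Hadha and Acaa2. Under the centred shift they were again lowest for these genes, and the culture with both agents was lowest for Acads. Both comparisons with the culture that received both agents share a library with that between NRG-1 and DMSO, and are not independent of it.

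**Figure D3:**
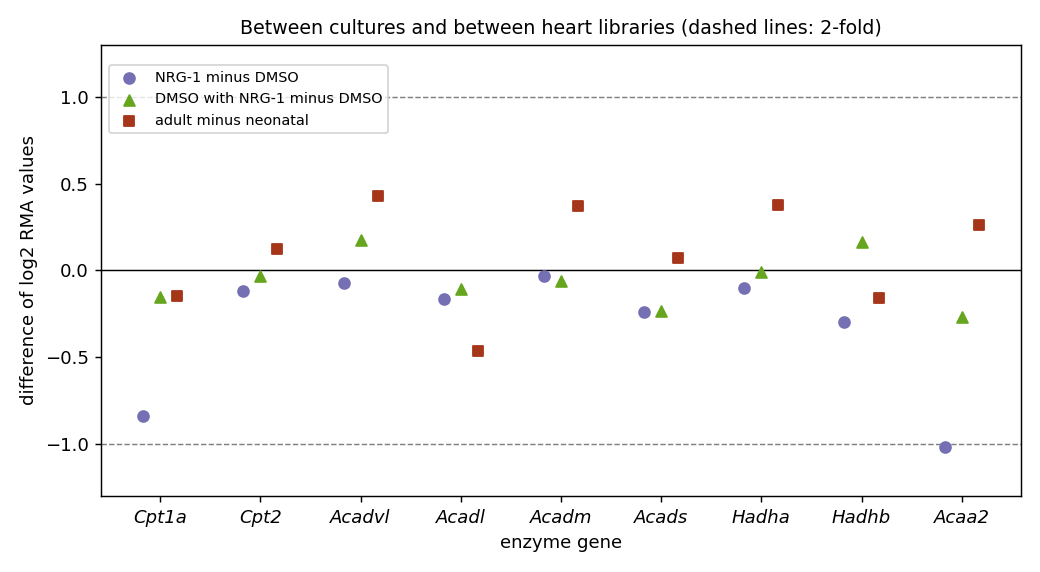
Difference of log2 RMA values (vertical axis) for each enzyme (horizontal axis) in 3 comparisons: NRG-1 minus DMSO (circles), both agents minus DMSO (triangles) and adult minus neonatal heart (squares), with dashed lines at 2-fold. All 9 circles lie below 0, with Acaa2 at -1.02 and Cpt1a at -0.84.

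The 3 cultures were also read together against the 2 heart libraries. Cpt1a, Acadl and Hadha were lower in every culture than in both heart libraries, and Acadvl was higher. These are 3 of 8 and 1 of 8 enzymes, beside 29.6% of 14143 genes that were lower and 29.5% that were higher in all cultures. The gap between the groups was 1.04 for Cpt1a, 0.83 for Acadl, 0.24 for Hadha and 0.17 for Acadvl. Acaa2, Acadm, Acads, Cpt2 and Hadhb overlapped between the groups. Under the housekeeping shift Cpt1a, Acadl and Acadvl kept this order, Hadha overlapped, and Acadm and Cpt2 were higher in all cultures. Under the centred shift Cpt1a, Acadl, Hadha and Acadvl kept it, Acads was lower and Cpt2 higher in all cultures.

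Genes whose centred values ran closest to those of Cpt1a over the 6 libraries were Dipk1a, S1pr2, Akr1e1 and Ftsj1, with root mean square differences of 0.06, 0.11, 0.11 and 0.11 on the log2 scale. For the mean centred profile of the 9 enzymes they were Trpt1, Hdac8, Plxna3 and Tmem242, at 0.04 to 0.05. That mean profile was lowest with NRG-1 (-0.33) and highest in the adult library (0.22). With 13233 genes compared over 6 libraries, such likeness is a description of these libraries.

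The other steps of the pathway were read from lists of related genes. Of the 14 other enzymes of mitochondrial beta oxidation, 4 were at least 2-fold lower with NRG-1 than in iPS cells and 0 higher, beside 14.5% and 11.3% of all genes tested: the short-chain hydroxyacyl-CoA dehydrogenase Hadh (-1.29), Acad9 (-1.18), the hydratase Echs1 (-1.11) and Acad11 (-1.03). With DMSO 1 was lower (Echs1, -1.21), and with both agents 2 were (Echs1, -1.13, and Acad9, -1.12), near the 13.3% and 13.1% of all genes tested. Either housekeeping shift adds a constant above 0 to each culture against iPS cells, 0.40 or 0.44 with NRG-1. Under either, none of these genes stays 2-fold lower. The list median was -0.61 with DMSO, -0.67 with NRG-1 and -0.61 with both, and -0.04 and -0.07 in the neonatal and adult libraries. Under the housekeeping shift these medians became -0.03, -0.27 and 0.24 in the cultures, and 0.34 and 0.09 in the heart libraries. Under the centred shift they were -0.24, -0.24 and -0.33 in the cultures, and 0.37 and 0.25 in the heart libraries. In the heart libraries Acat1, the thiolase that splits acetoacetyl-CoA, was the 1 gene past 2-fold, at 1.63 and 1.32. Etfdh, named after its values were seen, which passes electrons from the dehydrogenases to the respiratory chain, was 0.75, 0.82 and 0.80 higher with DMSO, NRG-1 and both. The list of mitochondrial content and citric acid cycle genes had a median of -0.55, -0.65 and -0.63 in these cultures, which became 0.03, -0.25 and 0.21 under the housekeeping shift and -0.18, -0.21 and -0.36 under the centred shift, with Idh3a, a subunit of isocitrate dehydrogenase, at -1.56, -2.17 and -1.61.

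Among 6 genes of the carnitine shuttle and of entry, Slc25a20, the carrier that exchanges acylcarnitine for carnitine, was at 8.50 in iPS cells, 7.41 with DMSO, 6.93 with NRG-1, 7.71 with both, 7.71 in the neonatal and 7.93 in the adult library. As for Cpt1a, the culture with NRG-1 was lowest. Acot2, a mitochondrial thioesterase, was at 10.05 in iPS cells, 11.32 with DMSO, 9.64 with NRG-1, 11.17 with both, 9.46 in the neonatal and 11.29 in the adult library. It was thus high in both cultures with DMSO and low with NRG-1 alone, as Acaa2 was, though Acot2 belongs to a family of near-identical copies and its probe set may read several of them.

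Among genes of fatty acid uptake and activation, which act before CPT1, 9 of 12 had higher values than iPS cells in both heart libraries, and Fabp3, Slc27a1 and Acsl6 had lower ones. Of all genes tested, 45.9% were above iPS cells in the neonatal and 46.7% in the adult library. The share above iPS cells in both was not read, and the 2 comparisons share the iPS library. Of 12 measured, 11 entered the count, and 6 were at least 2-fold higher than iPS cells in the neonatal and 7 in the adult library. There were 0 lower in either, and the medians over the 12 were 1.12 and 1.15. Either housekeeping shift must raise these medians, since it adds a constant above 0 to every gene of both libraries against iPS cells. Of all genes tested, 13% were as far above iPS cells and 11.2% below in the neonatal library, and 13.1% and 14.1% in the adult library. The fatty acid transporter Cd36 was at 3.65 in iPS cells, 6.69 with DMSO, 7.06 with NRG-1, 6.75 with both, 6.28 in the neonatal and 8.22 in the adult library, so it was above iPS cells in all 5 other libraries. Lipoprotein lipase (Lpl) was 7.24 in the neonatal and 8.04 in the adult library and 5.10 to 5.62 elsewhere. The binding protein Fabp4 was 8.03 and 8.06 in the heart libraries and 3.95 to 4.81 elsewhere, and the acyl-CoA synthetase Acsl5 9.11 and 8.86 against 6.52 to 7.61. Fabp4 and Cd36 are also expressed by macrophages, endothelial cells and adipocytes. Of 4 adipocyte markers read, 0 reached the filter in the neonatal library and 1 in the adult library. The mean of the endothelial markers was 6.37 in the neonatal and 7.15 in the adult library, beside 6.60 in iPS cells, but its members went opposite ways. Cdh5 was 7.62 and 8.99 in the heart libraries against 6.20 in iPS cells, and Pecam1 6.38 and 6.63 against 8.58. Kdr was above iPS cells in both heart libraries, and Tek only in the adult library. Fabp3, the binding protein of heart muscle and also named after its values were seen, was 7.13 and 7.40 in the heart libraries and 7.69 in iPS cells.

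The malonyl-CoA list holds 9 genes, including subunits of AMPK, the kinase that inactivates acetyl-CoA carboxylase. With DMSO 3 of them were 2-fold or more above iPS cells and 2 as far below. With NRG-1, 2 were higher and 2 lower, and with both agents 3 were higher and 1 lower. Of all genes tested, 11.3% to 13.1% were as far above and 13.1% to 14.5% below in these comparisons. Acaca, acetyl-CoA carboxylase 1, was 8.46 in iPS cells, 6.72, 6.76 and 6.91 with DMSO, NRG-1 and both, and 7.93 and 7.69 in the neonatal and adult libraries. Its values were lowest in the cultures, where Cpt1a was lowest too. Prkaa2, a catalytic subunit of AMPK, was 7.87 in iPS cells, 10.05, 9.55 and 10.23 in the same cultures, and 6.66 and 5.89 in the heart libraries. In the fatty acid synthesis list the elongase Elovl6 was 11.42 in iPS cells and 9.57, 7.70 and 9.49 in the cultures, and 9.74 and 9.54 in the heart libraries, again lowest with NRG-1 alone.

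Among 13 nuclear receptors and coactivators, the range across libraries was narrow for Ppara, Esrra and Rxra (0.22, 0.49 and 0.22) and wide for Pparg, Ppargc1a (3.75) and Lpin1 (2.37). Ppara, the PPAR of liver and heart, lay between 5.45 and 5.67 in all 6 libraries, close to the filter, and Esrra between 6.79 and 7.28. Pparg, known for its role in fat cells and macrophages, was 4.51 in iPS cells, 6.94, 6.41 and 6.73 with DMSO, NRG-1 and both, and 8.51 and 7.38 in the neonatal and adult libraries. Ppargc1a, which encodes PGC-1alpha, was 3.47 in iPS cells, 7.22 with DMSO, 5.48 with NRG-1, 6.42 with both, 4.96 in the neonatal and 3.66 in the adult library. It was highest with DMSO, and the heart libraries were under the filter. The difference between NRG-1 and DMSO was -1.75 for Ppargc1a, and those of the 9 enzymes were also below 0. Against iPS cells Ppargc1a was higher in each culture, while the median of the enzymes was below 0. A link between Ppargc1a and the enzymes was not tested. Nrip1, a corepressor of these receptors, was 8.02 in iPS cells, 9.98, 9.46 and 9.91 in the cultures, and 8.86 and 8.51 in the heart libraries. Lpin1, a coactivator of PGC-1alpha and PPARalpha, was 8.35 in iPS cells, 8.18, 8.45 and 8.41 in the cultures, and 6.08 and 6.26 in the heart libraries, where it was low. Esrrb, a receptor of the pluripotent state, was 6.81 in iPS cells and under the filter elsewhere.

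**Figure D4:**
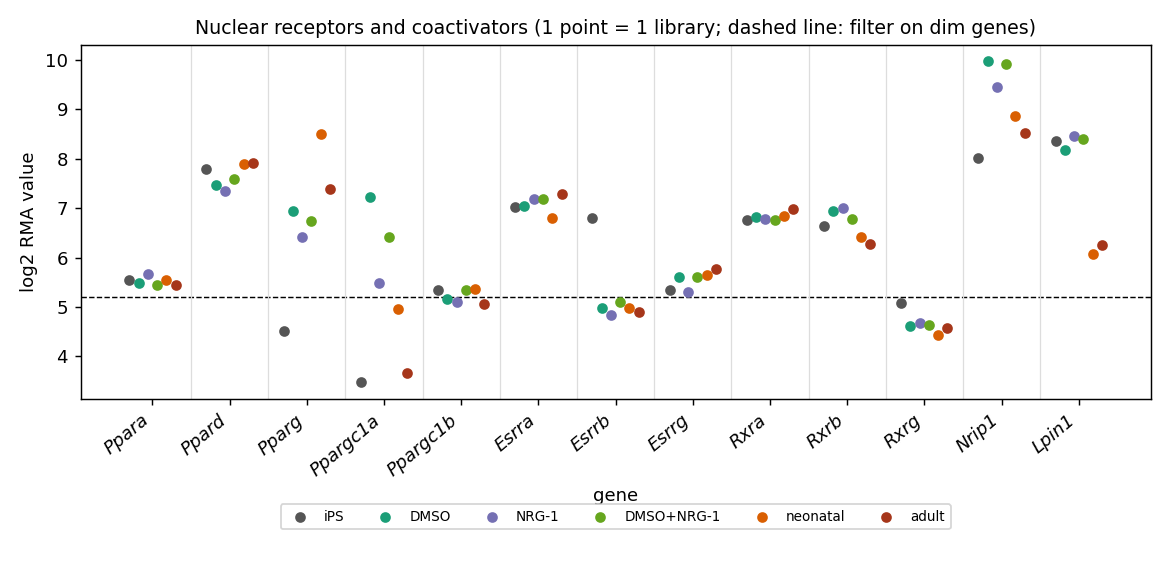
Log2 RMA value (vertical axis) of 13 nuclear receptors and coactivators (horizontal axis) in the 6 libraries, 1 point per library, with the filter on dim genes as a dashed line; values are to be compared within a gene. Ppargc1a is highest with DMSO (7.22) and lowest in iPS cells (3.47), and Ppara stays between 5.45 and 5.67.

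Other PPAR target genes differed in both directions. With DMSO 3 of the 8 that passed the filter were 2-fold or more above iPS cells and 1 below, beside 13.1% and 13.3% of all genes tested. In the adult library 2 of 8 were above and 1 below, beside 13.1% and 14.1%. Pdk4, the kinase that shuts off pyruvate oxidation, was 7.33 in iPS cells, 9.63 with DMSO, 8.65 with NRG-1, 9.54 with both, 8.27 in the neonatal and 7.24 in the adult library. The cultures were above the other libraries, with NRG-1 alone the lowest of the 3. Angptl4, an inhibitor of lipoprotein lipase, ran the other way, at 7.34 in iPS cells, 6.14, 5.45 and 5.51 in the cultures, and 8.37 and 9.21 in the heart libraries. Among 12 peroxisomal genes, 10 passed the filter against iPS cells in the adult library and in each culture, and 11 in the neonatal library. The adult library had 0 past 2-fold, and the neonatal library 0 higher and 1 lower. With NRG-1 1 was higher (Abcd3, a peroxisomal transporter, 1.09) and 2 lower (Decr2, -1.90, and Amacr, -1.02). With DMSO 0 were higher and 2 lower, and with both agents 1 was higher and 1 lower. Of all genes tested, 11.3% to 13.1% were as far above and 11.2% to 14.5% below in these comparisons. For ketone body use, Oxct1 was 9.85 and 9.57 in the heart libraries, 8.36 in iPS cells and 7.23 to 7.42 in the cultures; as for Cpt1a, the cultures were lowest.

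**Figure D5:**
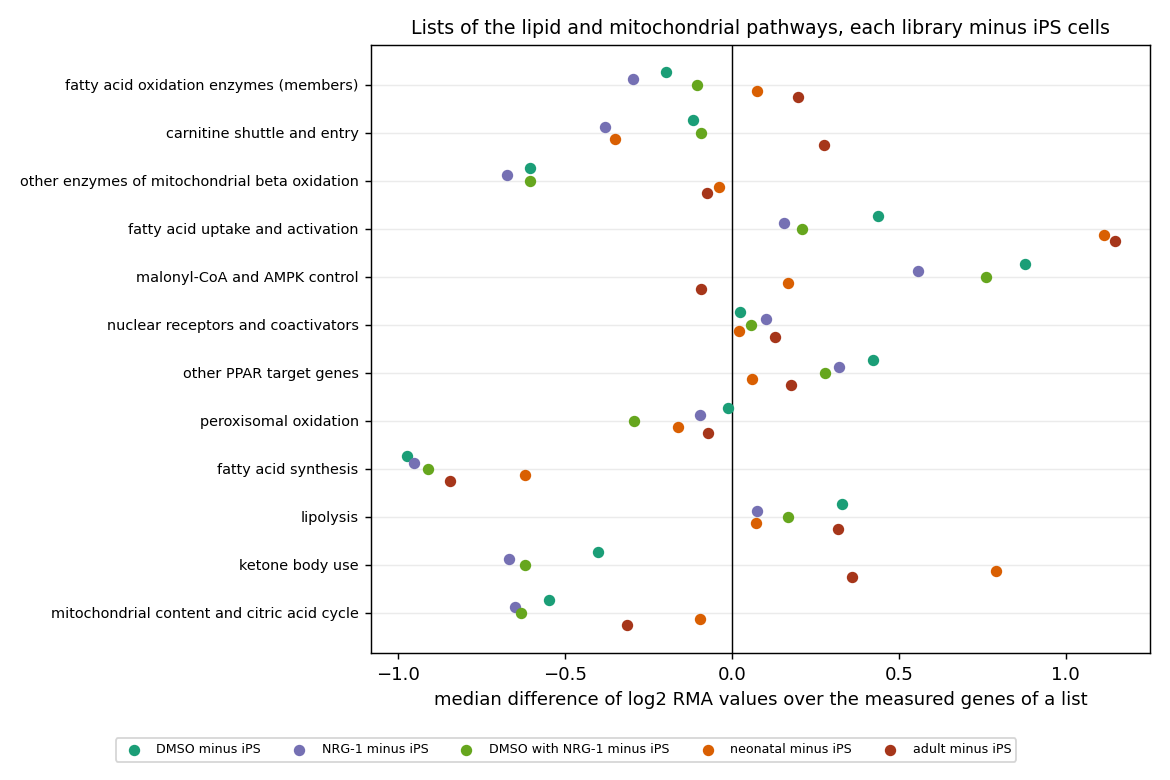
Median difference of log2 RMA values from iPS cells over the measured genes of each list (horizontal axis), with 1 row per list and 1 point per library. The 9 fatty acid oxidation enzymes lie between -0.30 and 0.20, the other enzymes of beta oxidation lie at -0.67 to -0.61 in the cultures, and the uptake genes lie at 1.12 and 1.15 in the heart libraries.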

How the data were processed

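The deposited values cover 41345 probe sets on 6 arrays; the authors made them with RMA, per the submitters' processing notes, and their size shows a log2 scale. RMA makes the arrays nearly equal in distribution (the largest gap between sorted columns was 0.285), which hides any shift common to most genes. No detection values were used, and precision is limited by having 6 arrays. The platform annotation names 1 gene for 23521 probe sets, several for 1814 and none for 16010. A gene's value was the mean over its probe sets of 1 symbol. The 9 comparisons are differences of log2 values between single libraries, with no test; genes whose higher value was at or above 5.20 were counted past 2-fold. Error was read from genes with 2 probe sets, as the SD over genes of the gap between their log2 differences, over the square root of 2 (449 to 509 genes), which mixes noise with transcript differences. Promoter sequences are RefSeq's (GRCm38.p6). The counting step was tested on simulated data. Tools were Python 3.11.15, pandas 2.3.3 and limma 3.58.1 (cyclic loess).

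All 10 enzymes were to be named, with up to 4 genes past 2-fold per list and comparison, any nuclear receptor or coactivator, and the 4 genes most like a profile; Etfdh and Fabp3 fall outside this rule. The enzymes, lists and alternatives were chosen with earlier results of these data known.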

Additional observations from a re-analysis of the deposited data

How the results depend on the processing

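Alternatives were no filter, a filter at the 75th percentile (6.93), a 1.5-fold limit, the brightest probe set, cyclic loess, a shift that equalised the median of 7 housekeeping genes, the median over enzymes above the filter and, chosen after seeing the data, a centred shift, in which each housekeeping gene was first centred over the libraries. The housekeeping shift moved the median of all genes by -0.22 to 0.85. Of 81 enzyme differences, 22 changed sign under the shift itself, 2 under cyclic loess and 17 under the centred shift. Read relative to the median of all genes, the added constant cancels, and no enzyme difference moved by more than 0.043. That 0 of 81 changed sign in this reading therefore does not check the scaling. Among these housekeeping genes Hprt and Gusb differed past 2-fold in some comparisons. No difference past 2-fold was reversed. Under the shift the median of the enzymes for both agents minus iPS cells was 0.74 in place of -0.11. That of the housekeeping genes themselves was then 0.77 in place of -0.08. Enzymes 2-fold apart from iPS cells then numbered 1 for the adult library, 2 with DMSO, 2 with NRG-1 and 3 with both. The number became 2 for NRG-1 minus DMSO and 2 for both minus NRG-1. Against iPS cells, Cpt1a was then -0.53 with DMSO and -0.41 with both, no longer past 2-fold, and -1.55 with NRG-1. The enzymes counted were Acaa2 and Acadvl with DMSO, Acadvl and Cpt1a with NRG-1, and Acaa2, Acadvl and Cpt2 with both. Under the centred shift Cpt1a was -0.74 with DMSO, -0.99 with both and -1.51 with NRG-1. Cyclic loess, and the shift read relative to all genes, each gave 2 for both minus iPS cells, where Acadvl lay just under 2-fold. A 1.5-fold limit gave 2 enzymes for the neonatal library, 2 for the adult library, 4 with DMSO, 4 with NRG-1 and 5 with both, each against iPS cells, 2 for NRG-1 minus DMSO and 2 for both minus NRG-1. The centred shift gave 1 for the adult library, 2 with DMSO and 2 with NRG-1, each against iPS cells, and 0 for NRG-1 minus DMSO. Of these values 20 moved, and the other 106 stayed within 1.5-fold. The brightest probe set could move none of them, since each enzyme has 1 probe set. The shift read relative to all genes cancels its own constant and could move them only a little. The 106 thus include values that could not move. No paired analysis was possible because each group has 1 library, and no library could be left out.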
